A study of Rattus norvegicus with 2 samples.

Results

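Transcripts of the amyloid precursor family and of its secretases were examined in rat oligodendrocyte precursor cells (OPCs) kept in culture, the dividing glia that give rise to myelin-forming oligodendrocytes. The set held 9 of the 17202 genes of the deposited expression table, and it was chosen by gene symbol: the precursor App, its relatives Aplp1 and Aplp2, the beta-secretase Bace1, the gamma-secretase subunits Psen2, Psenen, Aph1a and Ncstn, and the alpha-secretase Adam10. RNA was sequenced from primary wild-type OPCs that had been exposed for 2 days to 1 µM of amyloid-beta (Aβ), and from wild-type OPCs labelled with the solvent DMSO. Each condition gave 1 library. The protocol text on treatment is the same for both samples and names Aβ alone, so the length of DMSO exposure is known only from that wording. The labels give neither the species, length nor aggregation state of the peptide. They call the cells adult in one place and taken from developing rats in another, and both titles carry P1 with no explanation. The age was not settled here.

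The amyloid precursor protein and its relatives are single-pass membrane proteins whose outer part is cut off by a sheddase. Cleavage by ADAM10 falls inside the Aβ stretch of the precursor, while cleavage by BACE1 frees the start of that stretch. Gamma-secretase, built from a presenilin, nicastrin, APH-1 and PEN-2, then cuts within the membrane, which releases Aβ after BACE1 and the intracellular domain after either sheddase. APLP1 and APLP2 pass through the same enzymes but carry no Aβ sequence. In the brain, App is transcribed in neurons and glia alike, and gamma-secretase also releases the signalling domain of Notch, a regulator of OPC differentiation.

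Levels between genes are given in TPM, the authors' per-length scale, and differences between libraries as a ratio of CPM (estimated counts scaled to library size), Aβ over DMSO, with a 95% interval. These intervals cover counting error alone. With 1 library per condition there was no replicate to test against, so the ratios carry no p-value and compare 2 libraries. The libraries held 15117102 estimated counts for Aβ and 15019416 for DMSO. Of all genes, 13505 were measured, meaning 1 CPM or more in at least 1 library. All 9 members were measured, all had whole estimated counts in both libraries, and the table held 0 further entries named after one of them. OPC markers were abundant, with a summed level over 6 markers (Pdgfra, Cspg4, Olig1, Olig2, Sox10 and Ptprz1) of 2099 TPM with Aβ and 2033 TPM with DMSO. The cultures also held astrocyte transcripts, with 5 of 5 markers detected, 1046 TPM in sum with Aβ and 1001 TPM with DMSO, most of it from Gfap. Neuronal markers summed to 90.2 TPM with Aβ and 89.9 TPM with DMSO over 6 of 6 genes, mature oligodendrocyte markers to 59.8 TPM with Aβ and 57.4 TPM with DMSO over 5 of 5, and microglial markers to 10.8 TPM with Aβ and 14.2 TPM with DMSO over 6 of 6. Astrocytes, neurons and microglia express App and its secretases too. The part that such cells take in the levels below was not tested, and in a bulk culture fewer cells of a type and less RNA per cell cannot be told apart.

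Of the 9 members, Aplp2 and Psen2 were the members whose interval lay wholly above 1, and the 250 bases before their annotated start show how unlike the upstream sequences of these members are. They come from RefSeq on build GRCr8, on the strand of the gene, and are written 5′ to 3′ with the GC box GGGCGG in capitals. The Aplp2 window is chr8:37920032-37920281 and the Psen2 window chr13:94516576-94516825, both on the minus strand.
Aplp2: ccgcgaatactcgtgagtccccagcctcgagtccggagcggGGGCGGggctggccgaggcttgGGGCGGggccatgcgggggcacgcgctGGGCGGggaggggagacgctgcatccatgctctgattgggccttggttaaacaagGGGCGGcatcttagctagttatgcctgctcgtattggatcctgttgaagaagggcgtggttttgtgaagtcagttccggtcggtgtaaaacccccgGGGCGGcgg
Psen2: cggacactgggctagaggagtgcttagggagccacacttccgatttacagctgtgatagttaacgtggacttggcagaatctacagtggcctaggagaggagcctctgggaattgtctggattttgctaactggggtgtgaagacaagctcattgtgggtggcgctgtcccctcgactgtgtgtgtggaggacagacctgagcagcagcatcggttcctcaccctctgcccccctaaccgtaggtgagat
The Aplp2 window had 64.8% G and C, 22 CpG dinucleotides and 5 GC boxes. By contrast, the Psen2 window had 55.2% G and C, 7 CpG dinucleotides and 0 GC boxes. Across all 33469 RefSeq windows of this length, the median was 51.2% G and C with 5 CpG dinucleotides. These windows were not limited to genes measured here, whereas all 9 members were measured, so the shares below are no matched background. A GC box on either strand was found in 6 of the 9 member windows, those of App, Aplp1, Aplp2, Psenen, Aph1a and Adam10, and in 30.5% of all windows. The letters TATAAA, also searched on both strands, were found in 0 of 9 member windows and in 12.9% of all windows. The letters CCAAT were found in 4 of 9 member windows and in 34.0% of all windows. These matches describe letters in a window and do not show that a factor binds there.

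All 3 precursor genes were well expressed, and App was the most abundant of the 9 members in both libraries. App stood at 297 TPM with Aβ and 285 TPM with DMSO, rank 456 of the table with Aβ and rank 482 with DMSO. Its 8498 counts with Aβ and 8310 with DMSO gave a ratio of 1.01 (0.984 to 1.05), so this deeply counted gene was at about the same level in both libraries. Aplp2, the widely expressed relative, stood at 188 TPM with Aβ and 172 TPM with DMSO, from 6191 counts with Aβ and 5800 with DMSO. The Aplp2 ratio was 1.06 (1.02 to 1.10), the narrowest interval of the set that left out 1. Aplp1, the relative best known from neurons, had 112 TPM with Aβ and 110 TPM with DMSO. Its 2211 counts with Aβ and 2201 with DMSO gave a ratio of 0.996 (0.939 to 1.06), the one member below 1. That sign flips with DESeq2 size factors, with deposited TPM and with the length trend removed.

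Within the family, the make-up was nearly the same in both libraries. App took 49.8% of the family's summed TPM with Aβ and 50.2% with DMSO, Aplp2 took 31.4% with Aβ and 30.4% with DMSO, and Aplp1 took 18.7% with Aβ and 19.3% with DMSO. Summed over the 3 genes, the Aβ library held 16900 counts and the DMSO library 16311, which is 1.03 (1.01 to 1.05) as a ratio. Of the 3, only Aplp2 had an interval of its own that left out 1. APP isoforms, which differ by an inhibitor-like domain, are not separated in a gene-level table and were not analysed here.

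The sheddases stood well below the precursors. Adam10, the main alpha-secretase of neurons and a sheddase of many membrane proteins, had 58.3 TPM with Aβ and 54.5 TPM with DMSO, from 2134 counts with Aβ and 2013 with DMSO. Its ratio of 1.05 (0.989 to 1.12) held 1 within the interval. Bace1, the aspartic protease that starts the Aβ-forming route, had 19.3 TPM with Aβ and 16.4 TPM with DMSO. With 377 counts under Aβ and 326 under DMSO, the Bace1 ratio was 1.15 (0.986 to 1.33), also with 1 inside. Adam10 therefore exceeded Bace1 by 3.02-fold with Aβ and by 3.32-fold with DMSO on the TPM scale. App exceeded Bace1 by 15.4-fold with Aβ and by 17.3-fold with DMSO. Transcript levels say nothing of enzyme activity, which was not measured.

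**Figure D1:**
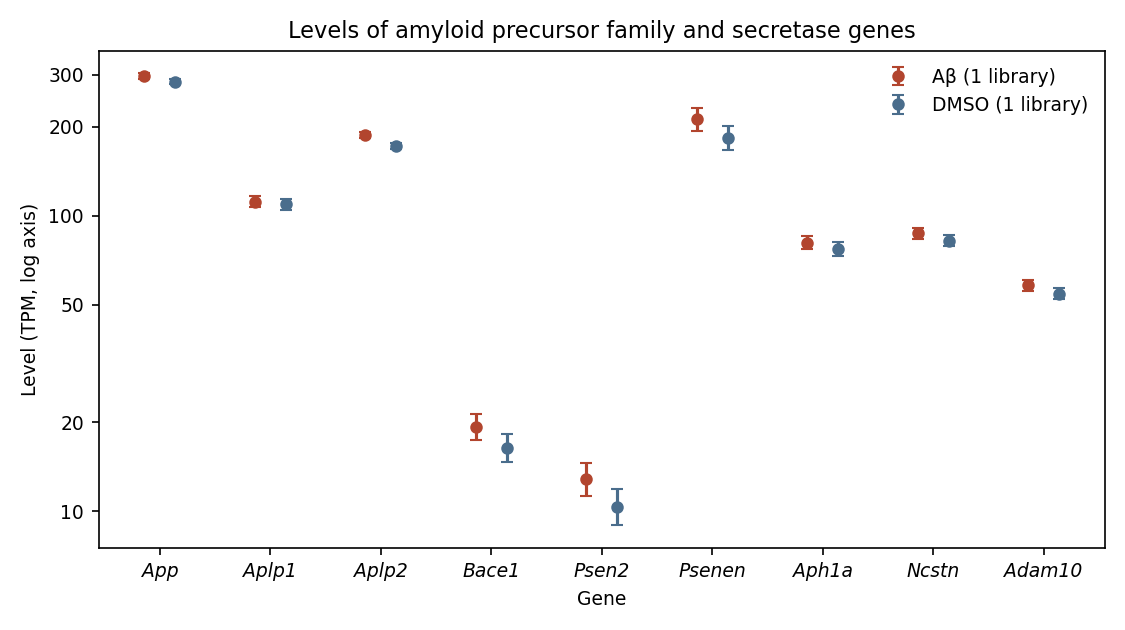
Level of each member in TPM on a log axis, in the Aβ library and the DMSO library. Points are the deposited values of 1 library each and bars are 95% counting intervals scaled to TPM, and the members span from about 10.4 TPM (Psen2 with DMSO) to 297 TPM (App with Aβ).

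Gamma-secretase transcripts were uneven although the enzyme assembles with 1 copy of each subunit. Psenen, which encodes PEN-2, the subunit that triggers cleavage of presenilin into its active form, had 212 TPM with Aβ and 183 TPM with DMSO. That level rests on 493 counts with Aβ and 429 with DMSO, because the length implied by its count and FPKM in the DMSO library was 216 bases, the shortest of the set. Its ratio was 1.14 (0.999 to 1.30), with the lower limit just under 1. Ncstn, encoding nicastrin, the large subunit that admits substrates, had 87.2 TPM with Aβ and 82.5 TPM with DMSO, from 2360 counts with Aβ and 2275 with DMSO. The Ncstn ratio was 1.03 (0.971 to 1.09). Aph1a, encoding the scaffold on which the complex is assembled, had 81.2 TPM with Aβ and 77.1 TPM with DMSO. Its 1411 counts with Aβ and 1361 with DMSO gave a ratio of 1.03 (0.954 to 1.11), so nicastrin and APH-1A transcripts were close in level and in ratio.

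Psen2, which encodes a catalytic presenilin subunit, was the least abundant member and had the ratio furthest from 1. It had 12.9 TPM with Aβ and 10.4 TPM with DMSO, rank 8345 of the table with Aβ and rank 8906 with DMSO. Its 243 counts with Aβ and 197 with DMSO gave a ratio of 1.22 (1.01 to 1.48), an interval that begins just above 1. On the TPM scale, Psenen exceeded the Psen2 transcript 16.5-fold with Aβ and 17.7-fold with DMSO. Ncstn exceeded it 6.79-fold with Aβ and 7.95-fold with DMSO. The Psenen quotient rests largely on the short length implied for that gene. In CPM, which takes no account of length, Psenen had 32.6 with Aβ and 28.6 with DMSO. Psen2 had 16.1 CPM with Aβ and 13.1 CPM with DMSO. Over the 4 subunits of the set the Aβ library held 4507 counts and the DMSO library 4262, or 1.05 (1.01 to 1.09) as a ratio. Of the 4, only Psen2 had an interval of its own that left out 1.

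The order of levels was the same in both libraries: App, Psenen, Aplp2, Aplp1, Ncstn, Aph1a, Adam10, Bace1 and Psen2. Ncstn and Aph1a had overlapping counting intervals in both libraries. Psenen and Aplp2 overlapped in the DMSO library, and in the Aβ library the Psenen interval (194 to 232 TPM) began just above the end of the Aplp2 interval (183 to 192 TPM). All other neighbours were further apart than their counting error. No likeness of pattern to other genes was computed, since 2 libraries give 1 ratio per gene.

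**Figure D2:**
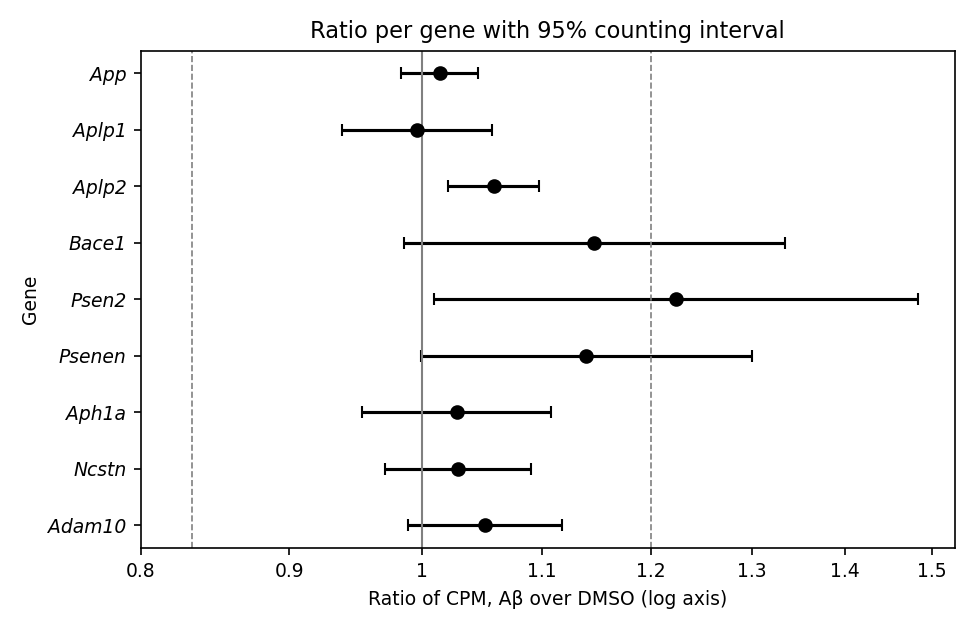
Ratio of CPM in the Aβ library over the DMSO library for each member on a log axis, with 95% counting intervals as bars and 1.2-fold marked by dashed lines. Psen2 lies at 1.22 and Aplp1 at 0.996, and the intervals of Psen2 and Aplp2 leave out 1.

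Differences between the libraries were small throughout the set. A ratio above 1 was found in 8 of 9 members, against 49.7% of all measured genes, and in 9 of 9 members with deposited TPM, a scale on which 63.1% of all measured genes lay above 1. At least a 2-fold difference with an interval that leaves out 1 was seen in 0 of 9 members and in 0.674% of measured genes. Beyond 1.2-fold in either direction lay 1 of 9 members, Psen2, and 13.1% of measured genes, which is close to the same share. The interval lay wholly above 1 for 2 members, Aplp2 and Psen2, and for 6.49% of measured genes. It lay wholly below 1 for 0 members and for 6.88% of measured genes. The median log2 ratio was 0.072 over the members and -0.00078 over all measured genes.

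The larger ratios belonged to the members with the fewest counts. Psen2, Bace1 and Psenen, at ratios of 1.14 to 1.22, were the 3 members under 50 CPM, and the other 6 lay between 0.996 and 1.06. Among measured genes of 10 to 50 CPM, 6.69% lay beyond 1.2-fold and the middle 90% had ratios from 0.856 to 1.17. Bace1 and Psenen lay inside that range and Psen2 above it. An interval wholly above 1 was found in 5.33% of genes at that level and in 1 of the 3 members there, Psen2. Among the 5050 genes of 50 CPM or more, 0.614% lay beyond 1.2-fold and the middle 90% had ratios from 0.919 to 1.09, which holds all 6 of the more abundant members. The middle 50% of those genes lay between 0.969 and 1.04, and Aplp2 and Adam10 stood above that range. An interval wholly above 1 was found in 9.17% of genes at 50 CPM or more and in 1 of the 6 members there, Aplp2.

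**Figure D3:**
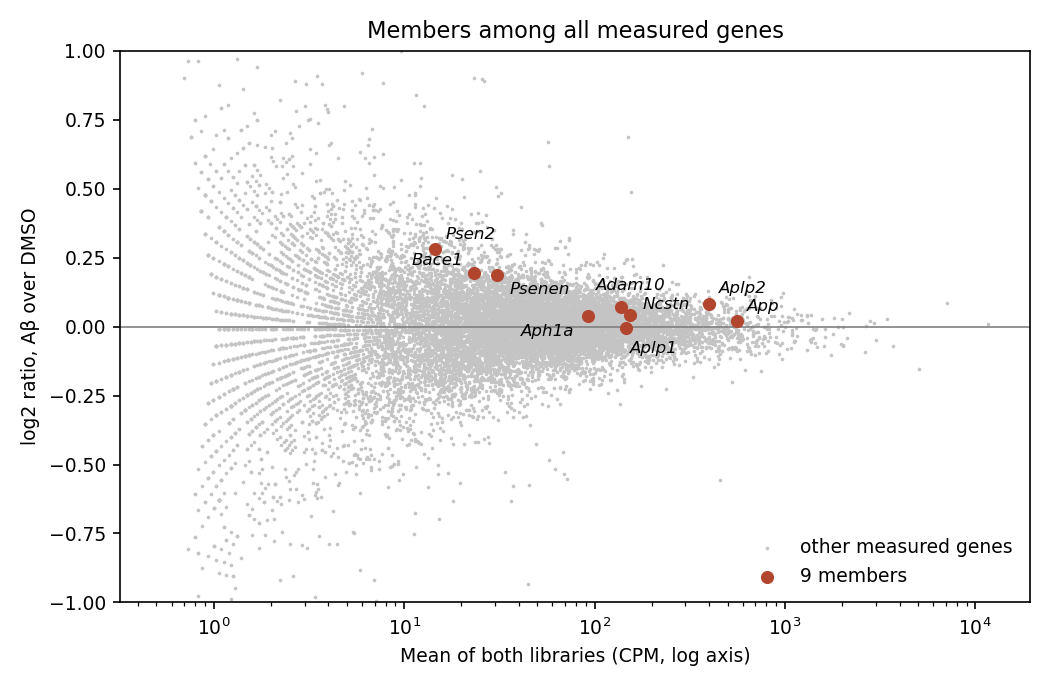
The log2 ratio of CPM, Aβ over DMSO, against the mean CPM of both libraries on a log axis, with the 9 members in red among all other measured genes in grey. Psen2, Bace1 and Psenen sit where the spread of all genes is wide, and the 91 measured genes with a log2 ratio beyond 1 in size fall outside the plotted range.

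The 9 counting intervals had a stretch in common, between the lower limit of Aplp2 (1.021) and the upper limit of App (1.046). Such overlap does not show that the ratios are equal, and differences between members were not tested. Summed over the 9 genes there were 23918 counts with Aβ and 22912 with DMSO, or 1.04 (1.02 to 1.05) as a ratio. Neither this sum nor those of its parts was set beside sums of other genes. Aplp1 and Psenen lie near each other on rat chromosome 1 with 8 protein-coding genes between them in the RefSeq annotation, at ratios of 0.996 and 1.14.

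Genes around the 9 members were described from 4 further lists, beside all measured genes, of which 49.7% lay above 1, 6.49% had an interval wholly above 1 and 6.88% an interval wholly below 1. Other secretases and presenilin relatives, with 10 measured genes, divided evenly, 5 above 1 and 5 below. The median of their log2 ratios was -0.0023, which turns positive with library totals, DESeq2 size factors, deposited TPM, deposited FPKM and the 10 CPM filter. The most abundant were the signal peptide peptidase Hm13 (117 TPM in each library, ratio 0.970, 0.906 to 1.04) and its relatives Sppl2b (94.1 TPM with Aβ and 89.5 TPM with DMSO) and Sppl3 (74.8 TPM with Aβ and 80.3 TPM with DMSO). Intervals that left out 1 belonged to Adam9, a sheddase at 1.10 (1.03 to 1.17), named after its value was seen, and to Sppl3 at 0.907 (0.852 to 0.965). Adam17, the sheddase of tumour necrosis factor, had 27.0 TPM with Aβ and 25.6 TPM with DMSO. Bace2, the close relative of Bace1, was nearly absent, with 12 counts with Aβ and 21 with DMSO. Adam17 and Bace2 were likewise named after their values were seen.

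Secretase partners and regulators had 8 of 22 measured genes above 1 and a median log2 ratio of -0.025, which becomes 0.014 with deposited TPM beside 0.037 for all genes. Their most abundant genes were the reticulon Rtn4 (452 TPM with Aβ and 470 TPM with DMSO, fractional counts), Bsg (414 TPM with Aβ and 402 TPM with DMSO) and Tmem59 (401 TPM with Aβ and 404 TPM with DMSO). Reticulons bind BACE1 and reduce its access to the precursor, and Rtn4 had a ratio of 0.959 (0.937 to 0.982). Rtn1 had 0.957 (0.921 to 0.994), and Rtn3, the most deeply counted after Rtn4, had 0.984 (0.958 to 1.01), which holds 1. Both were named after their values were seen. Tspan33, a tetraspanin that escorts ADAM10 to the cell surface, was the one gene of the 4 lists beyond 1.2-fold with an interval that left out 1. Its count was 144 under Aβ and 90 under DMSO, with 7.65 TPM with Aβ and 4.51 TPM with DMSO, and a ratio of 1.59 (1.21 to 2.09). Its relatives Tspan5, Tspan14, Tspan15 and Tspan17, given beside it after their values were seen, lay between 0.963 and 1.01.

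Cytoplasmic adaptors and sorting proteins of the precursor had 20 of 27 measured genes above 1 (49.7% of all measured genes) and a median log2 ratio of 0.046, with intervals wholly above 1 for 5 and wholly below 1 for 0 (6.49% and 6.88% of all measured genes). The most abundant were the kinesin light chain Klc1 (242 TPM with Aβ and 229 TPM with DMSO), the retromer subunit Vps35 (142 TPM with Aβ and 139 TPM with DMSO) and the endocytic adaptor Picalm (96.2 TPM with Aβ and 92.1 TPM with DMSO). The 5 genes with intervals above 1, named after their values were seen, were Apbb2 at 1.11 (with fractional counts), Apba2 at 1.09, Kat5 at 1.11, Sort1 at 1.06 and Lrp1 at 1.08. Other membrane substrates of the secretases had 23 of 31 measured genes above 1 (49.7% of all measured genes) and a median of 0.034, and Lrp1 stands in both of these lists. Ptprz1, a receptor phosphatase of OPCs, was the most abundant substrate at 673 TPM with Aβ and 650 TPM with DMSO (ratio 1.01, 1.00 to 1.03), followed by Cdh2 (182 TPM with Aβ and 176 TPM with DMSO) and Sdc3 (93.0 TPM with Aβ and 93.8 TPM with DMSO). Intervals wholly above 1 were found for 6 substrates and for 6.49% of all measured genes. That share was 9.17% among measured genes of 50 CPM or more and 5.33% among those of 10 to 50 CPM. The adaptor and substrate lists both hold genes of these levels. Intervals lay wholly below 1 for 1 substrate and for 6.88% of all measured genes. That substrate, named after its value was seen, was Sdc1 at 0.877 (0.782 to 0.983). The 6, all but Ptprz1 named after their values were seen, were Notch1, Dll1, Chl1, Cx3cl1, Lrp1 and Ptprz1. Notch1, whose cleavage by ADAM10 and gamma-secretase sends the Notch signal, had 1.08 (1.04 to 1.12). Its ligand Dll1 had 1.17 (1.08 to 1.27). Chl1 had 1.11 (1.05 to 1.18), Cx3cl1 had 1.14 (1.02 to 1.28) and Lrp1 had 1.08 (1.05 to 1.11). For Ptprz1 the lower limit was 1.00007, barely above 1. The other Notch genes of the list, likewise named, had intervals that held 1. They were Notch2 at 1.04 (0.987 to 1.10), Notch3 at 1.11 (0.984 to 1.26) and the ligand Jag1 at 1.05 (0.794 to 1.39).

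**Figure D4:**
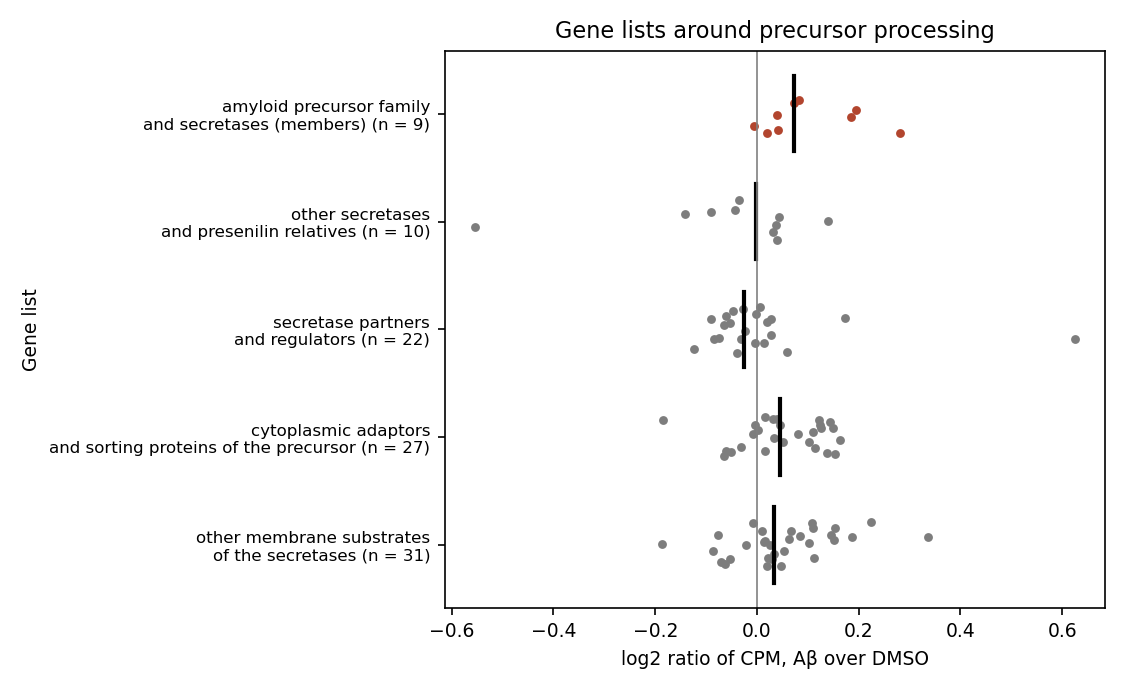
The log2 ratio of CPM, Aβ over DMSO, for every measured gene of the 9 members and the 4 further lists, with black bars at the list medians. The member median is 0.072 and the other medians lie between -0.025 and 0.046, and Tspan33 is the point furthest to the right.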

How the data were processed

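mRNA libraries from 2 OPC cultures, 1 per condition, were built with a BGI kit, per the labels' protocols. Bowtie2 and the build Rnor_6.0 are named in the submitters' processing notes, while quantifier, annotation and use of strand are not stated in the labels or headers. The authors deposited estimated counts (expected counts), TPM and FPKM per gene. The authors' normalized signal column, so named per the file headers, was made by dividing each rounded-up count by 1 constant per library (checked for 100% of values above 0, relative tolerance 1e-06) and was not used further.

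Estimated counts were rounded and scaled to CPM on TMM library sizes (edgeR 4.0.16, R 4.3.3). Log2 ratios used a pseudocount of 0.5 CPM, which understates differences of low genes. Ratios used none, and their 95% intervals were Clopper-Pearson limits given the summed counts of the gene. TPM intervals are exact Poisson intervals of the counts. Calls needed a 2-fold difference and an interval without 1. The interval method was checked on simulated counts with counting error alone, so the check does not cover variation between cultures. Pseudocount, filter, scaling, unit, length and whole-count alternatives were tried, with DESeq2 1.42.0 for size factors. The members and lists were chosen with earlier results of these data known. The text names all members and, in each further list, the 3 genes highest in TPM with DMSO and those beyond 1.2-fold with an interval without 1, and marks others. Upstream sequences were matched by gene ID for 9 of 9 members. Their build, GRCr8, differs from that of the counts. Most genes of the further lists are counted there but not reported by name.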

Additional observations from a re-analysis of the deposited data

How the results depend on the processing

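Across 9 alternatives, each of the 81 recomputed member log2 ratios stayed within the counting interval of its main value. The no-filter, 10 CPM filter and whole-count alternatives could not change any member value. All 9 members have whole counts and more than 10 CPM, so these runs repeat the main values. The log2 ratios of 8 members were above 0 in every alternative run. Aplp1 ranged from -0.012 (deposited FPKM) to 0.028 (deposited TPM) and was above 0 in 3, which brought the count above 1 to 9 of 9. Psen2 ranged from 0.22 (pseudocount 5) to 0.30. The count beyond 1.2-fold is taken on ratios without a pseudocount, so pseudocount 5 cannot change it, and it was 1 throughout. On the log2 scale with its pseudocount, Psen2 lay under 1.2-fold with pseudocount 5 (0.22) and with deposited FPKM (0.25). The count of 2-fold calls was 0 in all 9. The member median ranged from 0.057 with deposited FPKM to 0.097 with deposited TPM, where the median of all genes was 0.037. With the length trend removed it was 0.068. No paired analysis was possible because each condition has 1 library, and for the same reason no library could be left out. With 197 counts for Psen2 in the DMSO library, the counting interval reaches about 1.2-fold to either side, and smaller differences of that gene were not detectable.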
